A study of Caenorhabditis elegans with 72 samples.

Results

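Genes that encode proteins of *C. elegans* sperm were taken by name from a gene expression table of whole animals. A gene was included if it is protein-coding and its WormBase name starts with *msp*, *msd*, *nspd*, *ssp*, *ssq* or *spe* followed by a number, and *gsp-3* and *gsp-4* were added. This gave 92 genes of the 46624 in the table, of which 19701 are protein-coding. They comprise 31 *msp*, 4 *msd*, 10 *nspd*, 12 *ssp*, 4 *ssq*, 29 *spe* and 2 *gsp* genes. The symbol *ssp-9* belongs to WBGene00006038 and WBGene00006040 and the symbol *msd-1* to WBGene00009680 and WBGene00009684, so that the 92 genes have 90 symbols.

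The animals were late L4 larvae, the stage just before adulthood, in a series of 72 RNA-seq samples with 18 per genotype. These are more than the independent biological replicates of the methods, and the labels do not say which samples come from the same replicate. Double mutants of 3 kinds, with *npr-1* combined with *malt-1*, with *ilc-17.1* or with *nfki-1*, were compared with *npr-1* controls, and each is named here by its added mutation. All 4 genotypes carry the *npr-1* mutation, in a neuropeptide receptor gene, and all are labeled with the AX204 strain background. The product of *malt-1* is a paracaspase, that of *ilc-17.1* an IL-17 cytokine, and NFKI-1 resembles IκB proteins. All act in IL-17 signaling, and the comparisons ask how a mutation in each changes expression. The labels name no allele and no sex. The sequenced RNA came from the whole animal, so that fewer sperm cells and less sperm RNA per cell cannot be told apart.

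Sperm of *C. elegans* are amoeboid cells that crawl without actin. Their movement is driven by filaments of major sperm protein (MSP), encoded by the *msp* genes, and MSP released from sperm also signals to oocytes to mature. In hermaphrodites, germ cells first differentiate as sperm, during the L4 stage, and later as oocytes. Spermatocytes pack MSP into fibrous bodies attached to membranous organelles, round spermatids are then activated to extend a pseudopod, and further proteins act on contact with the egg. Many of these later steps were defined by mutants with defective spermatogenesis, named *spe*. Sperm have almost no transcription of their own, so that these mRNAs are made in spermatocytes.

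Each genotype has 1 FPKM estimate (a measure of expression corrected for transcript length and library size) in each comparison and no value per sample. No difference below therefore has a replicate check, an SD or a test, and the depth is unknown. Levels are the mean of the 3 estimates of a genotype, which differed by at most 1.03-fold for a given gene. Ratios are log2 of (FPKM + 1) within the comparison of 2 genotypes. A gene was counted as higher or lower at a log2 ratio of at least 0.25 if the mean of its 2 values was at least 1 FPKM.

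Most of the sperm protein genes were expressed in all 4 genotypes. Of the 92 genes, 85 had a mean level of at least 1 FPKM and 31 a mean level of at least 100 FPKM. Another 4 were listed at 0 in every genotype (*msp-33*, *nspd-8*, *ssp-37* and the *msd-1* gene WBGene00009684), as were 3264 of all protein-coding genes, and a value of 0 can be a failed estimate in such a table. The remaining 3 (*msp-32*, *msp-58* and the *msd-1* gene WBGene00009680) were above 0 with a mean level under 1 FPKM. In the comparison of *malt-1* mutants with *npr-1* animals, 84 of the 92 had a mean of at least 1 FPKM. So did 267 of 609 protein-coding genes with 1 coding exon and 11507 of 19092 with several. The share of all genes at 100 FPKM was not counted. Together the 92 genes summed to 8098 FPKM in *malt-1* mutants, 6193 FPKM in *ilc-17.1* mutants, 10400.4 FPKM in *nfki-1* mutants and 6947 FPKM in *npr-1* animals. This was 0.591%, 0.505%, 0.813% and 0.509% of the summed FPKM of all genes, in the same order. *nfki-1* mutants thus had the highest sum, and *ilc-17.1* mutants and *npr-1* animals had nearly equal shares.

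**Figure D1:**
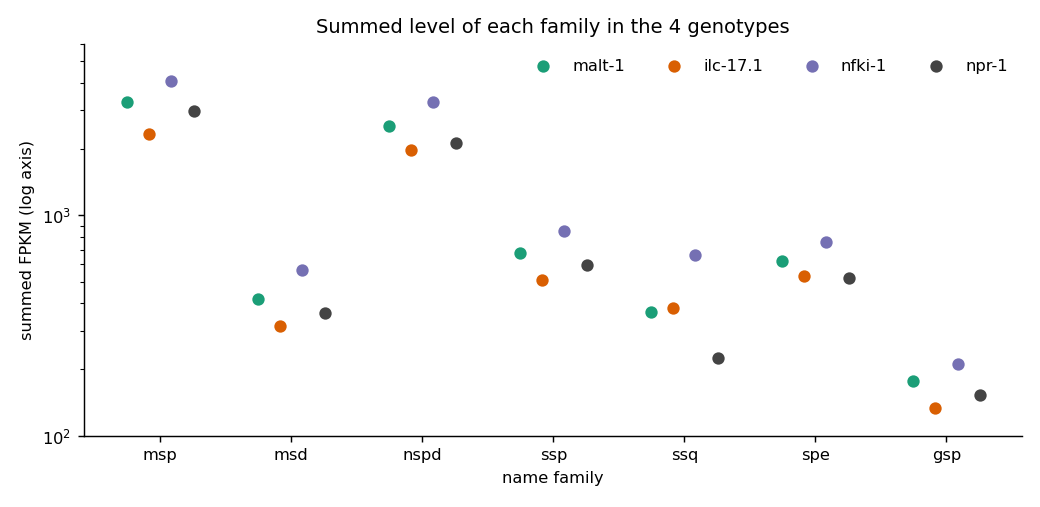
Summed FPKM (log axis) of the members of each name family in *malt-1* mutants, *ilc-17.1* mutants and *nfki-1* mutants and *npr-1* animals, 1 point per genotype, each the mean of 3 estimates. The *msp* sum is 4071 FPKM in *nfki-1* mutants and 2333 FPKM in *ilc-17.1* mutants, and *ssq* is the family whose lowest sum is clearly that of *npr-1* animals.

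The largest family by summed level was *msp*. Its 31 genes summed to 3285 FPKM in *malt-1* mutants, 2333 FPKM in *ilc-17.1* mutants, 4071 FPKM in *nfki-1* mutants and 2964 FPKM in *npr-1* animals. The most abundant of them, *msp-31*, had 319 FPKM in *malt-1* mutants, 230.4 FPKM in *ilc-17.1* mutants, 389 FPKM in *nfki-1* mutants and 279.5 FPKM in *npr-1* animals. The *nspd* genes, which encode short nematode-specific peptides, were next, with 2555, 1989 and 3285 FPKM in *malt-1* mutants, *ilc-17.1* mutants and *nfki-1* mutants and 2122 FPKM in *npr-1* animals. The most abundant, *nspd-1*, had 567 FPKM in *malt-1* mutants, 446 FPKM in *ilc-17.1* mutants, 712 FPKM in *nfki-1* mutants and 485 FPKM in *npr-1* animals. In both genes the order of the genotypes was that of the sum over all 92 genes. *nspd-2* and *nspd-7*, the other abundant *nspd* genes, had 457 and 399 FPKM in *npr-1* animals.

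The remaining families were less abundant. Genes of the *ssp* family, sperm-specific proteins with an MSP-like domain, summed to 679, 509 and 848 FPKM in *malt-1* mutants, *ilc-17.1* mutants and *nfki-1* mutants and 598 FPKM in *npr-1* animals. *spe* genes summed to 620.1, 534 and 755 FPKM in these mutants and 523 FPKM in *npr-1* animals. The *msd* family, which encodes small proteins with an MSP domain, rested on *msd-4*, with 370.1, 277 and 495 FPKM in *malt-1* mutants, *ilc-17.1* mutants and *nfki-1* mutants and 318 FPKM in *npr-1* animals. *msd-2* had 43.4 FPKM in *npr-1* animals. *gsp-3* and *gsp-4* encode sperm-specific catalytic subunits of the phosphatase PP1, and their sum was 177, 133 and 212 FPKM in *malt-1* mutants, *ilc-17.1* mutants and *nfki-1* mutants and 153 FPKM in *npr-1* animals. All families except *ssq* and *spe* were lowest in *ilc-17.1* mutants, although *nspd* was not lower there than in *npr-1* animals with values divided by the sum over all genes, and every family was highest in *nfki-1* mutants.

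The same order recurred gene by gene. Of the 85 genes with a mean level of at least 1 FPKM, 45 were ordered *nfki-1* > *malt-1* > *npr-1* > *ilc-17.1*, among them 22 *msp*, 9 *ssp* and 5 *spe* genes. A further 19 genes, 12 of them *spe*, differed from this order only in that *npr-1* animals were lowest. The level was highest in *nfki-1* mutants for 78 of the 85 genes, and lowest in *ilc-17.1* mutants for 54 and in *npr-1* animals for 28. These orders were not counted over all genes, so no share of all genes stands beside them. Most *msp* genes are near-identical copies, described below, and are not separate observations of an order. Whether neighbors in these orders differ beyond the spread between replicates is not known.

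In *nfki-1* mutants nearly all sperm protein genes were higher than in *npr-1* animals. Their summed FPKM was 48.4% higher (10331 FPKM in *nfki-1* mutants, 6961 FPKM in *npr-1* animals), and the median log2 ratio was 0.51 over 85 genes, beside 0.02 over all 13461 genes that passed the filter. At a log2 ratio of 0.25, 73 of the 85 genes were higher and 0 were lower, against 26.4% and 16.9% of all genes. At 0.5, 45 were higher and 0 lower, against 14.5% and 5.41% of all genes. At 1, 4 were higher and 0 lower, against 3.65% and 2.16%, and these 4 were the *ssq* genes. By family, the summed ratio was 0.44 for *msp*, 0.63 for *msd*, 0.62 for *nspd*, 0.49 for *ssp*, 1.54 for *ssq*, 0.52 for *spe* and 0.46 for *gsp*. The genes with the lowest ratios in this comparison were *spe-5*, *spe-48*, *spe-44* and *spe-39*, at -0.13, -0.09, -0.09 and -0.07 (*spe-48* chosen after its values were seen).

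In *malt-1* mutants the change had the same direction and was smaller. The summed FPKM was 16.5% higher (8030.3 FPKM in *malt-1* mutants, 6892 FPKM in *npr-1* animals), with a median log2 ratio of 0.21 over 84 genes, beside 0.01 over all genes. At 0.25, 27 genes were higher and 1 was lower, against 18.7% and 11.3% of all genes. A ratio above 0 was found in 75 of the 84, a count that was not made over all genes. At 0.5 the counts were 2 higher and 1 lower, against 6.81% and 4.61% of all genes, and at 1 they were 1 higher and 0 lower, against 2.74% and 2.12%. The gene that was lower was *msp-10*, which had 0.73 FPKM in *malt-1* mutants and 1.66 FPKM in *npr-1* animals and so lay close to the filter. The genes with a ratio of at least 0.5 were *ssq-1* and *ssq-2*.

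In *ilc-17.1* mutants more of the genes were lower than higher. Their summed FPKM was 11.8% lower (6163 FPKM in *ilc-17.1* mutants, 6989 FPKM in *npr-1* animals), and the median log2 ratio was -0.15 over 84 genes, beside 0.03 over all genes. At 0.25, 7 genes were higher and 26 lower, against 24.3% and 19.1% of all genes. At 0.5, 3 were higher and 6 lower, against 10.4% and 5.97%, and at 1 the counts were 1 and 0, against 4.03% and 1.99%. The lower genes were 19 *msp*, 5 *ssp* and 2 *spe* genes, and the higher ones were all 4 *ssq* genes, *spe-12*, *spe-27* and *spe-36*. This direction depended on the scale. The summed FPKM of all genes was lower in *ilc-17.1* mutants, and with each value divided by that sum every ratio moved up by 0.17, the median of all genes to 0.19 and that of the sperm protein genes to 0.01, with 20 genes higher and 10 lower (23.8% and 11.9%, against 42.4% and 8.54% of all genes on that scale). Relative to the median of all genes, the sperm protein genes were lower by 0.18. This distance is the same on both scales by construction, since the division shifts every ratio alike. With near-identical copies summed the median was 0.03, and the 4 of 43 units that were lower lay under the 19.1% of all genes.

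**Figure D2:**
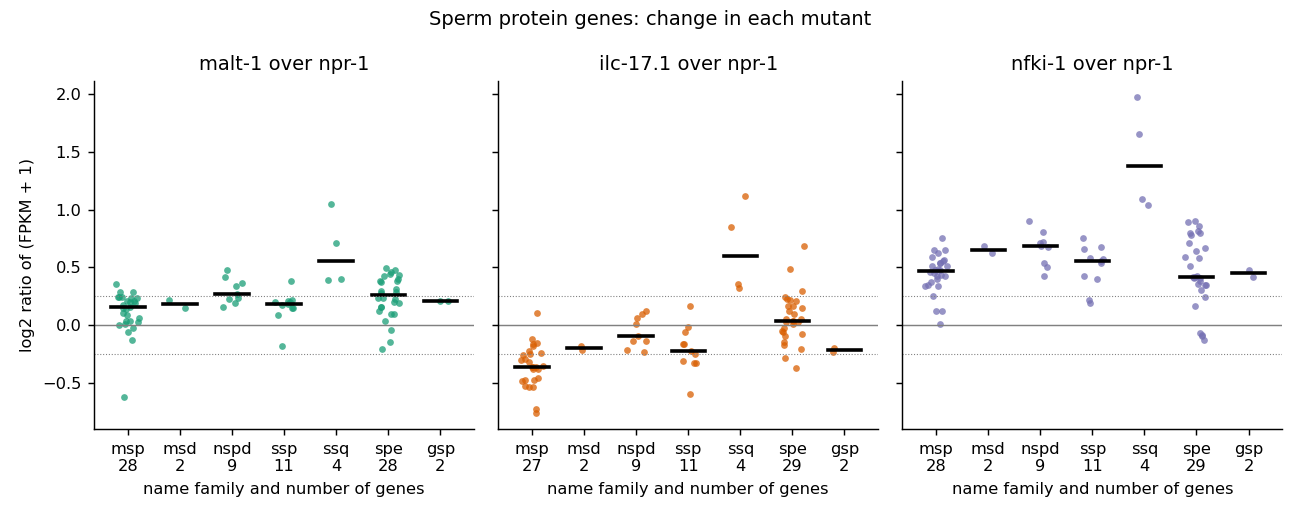
Log2 ratio of (FPKM + 1) of each sperm protein gene that passed the filter, by name family, in *malt-1* mutants, *ilc-17.1* mutants and *nfki-1* mutants over *npr-1* animals. Points are genes, thick lines family medians, dotted lines 0.25 in either direction, and the number under each family counts its genes. The 4 *ssq* genes lie above 0 in all 3 mutants, whereas the *msp* median is below 0 in *ilc-17.1* mutants, at -0.36, and reaches 0.47 in *nfki-1* mutants.

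The mutants were also set against each other. Sperm protein genes were lower in *ilc-17.1* than in *malt-1* mutants, with a summed FPKM 24.0% lower (6190 FPKM in *ilc-17.1* mutants, 8146 FPKM in *malt-1* mutants) and a median log2 ratio of -0.36. At 0.25, 1 of 84 genes (*spe-36*) was higher and 56 were lower, against 19.6% and 17.2% of all genes. At 0.5 the counts were 0 and 18, against 6.73% and 4.68%, and at 1 they were 0 and 0, against 3.03% and 1.89%. With values divided by the sum over all genes, 5 were higher and 27 lower, against 38.9% and 6.82% of all genes on that scale.

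*nfki-1* mutants were higher than *malt-1* mutants by 27.1% of the summed FPKM (10315 FPKM in *nfki-1* mutants, 8118 FPKM in *malt-1* mutants), with a median log2 ratio of 0.30. Here 53 of 85 genes were higher and 0 lower at 0.25, against 16.9% and 10.5% of all genes. At 0.5 these were 14 and 0, against 6.69% and 3.95%, and at 1 they were 0 and 0, against 2.51% and 2.17%. The widest gap was that between *nfki-1* and *ilc-17.1* mutants, with 10555 FPKM in *nfki-1* mutants and 6225 FPKM in *ilc-17.1* mutants, 69.6% higher, and a median log2 ratio of 0.72. At 0.25, 80 of 85 genes were higher and 0 lower, against 18.6% and 13.6% of all genes. The counts were 63 and 0 at 0.5, against 10.2% and 5.39%, and 0 and 0 at 1, against 2.21% and 2.85%.

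Between *nfki-1* and *ilc-17.1* mutants the 28 *msp* genes that passed the filter had ratios of 0.49 to 0.94, all above 0.25. The *msp* range was wider over *npr-1* animals, with -0.62 to 0.36 in *malt-1* mutants (3 higher, 1 lower), -0.76 to 0.11 in *ilc-17.1* mutants (0 higher, 19 lower, of 27 passing) and 0.01 to 0.75 in *nfki-1* mutants (24 higher, 0 lower). Both ends in *malt-1* and *nfki-1* mutants were *msp-10* and *msp-79*, which lay close to the filter. The shares of all genes are those given above for each mutant. Of the 31 genes, 28 have 127 codons in 1 coding exon and were treated as near-identical copies, whose reads of 50 bases cannot be assigned with certainty. Their sum was 22.6% lower in *ilc-17.1* mutants (2267 FPKM in *ilc-17.1* mutants, 2931 FPKM in *npr-1* animals), 35.8% higher in *nfki-1* mutants (3964 FPKM in *nfki-1* mutants, 2920 FPKM in *npr-1* animals) and 10.7% higher in *malt-1* mutants (3198 FPKM in *malt-1* mutants, 2890 FPKM in *npr-1* animals). The family sum remained lower in *ilc-17.1* mutants with values divided by the sum over all genes, at -0.19.

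Single *msp* genes differed around this sum. *msp-142* had 154 FPKM in *malt-1* mutants, 91.1 FPKM in *ilc-17.1* mutants, 169 FPKM in *nfki-1* mutants and 154 FPKM in *npr-1* animals, with ratios to *npr-1* animals of -0.00, -0.76 and 0.12. *msp-64*, at II: 5809917 to 5810342, lies 11575 bases from *msp-142*, at II: 5797893 to 5798341. It had 237, 144 and 259.9 FPKM in *malt-1* mutants, *ilc-17.1* mutants and *nfki-1* mutants and 236 FPKM in *npr-1* animals. These neighbors were the *msp* genes with the lowest ratios in *ilc-17.1* mutants, and neither reached 0.25 in *nfki-1* mutants. *msp-40*, also abundant, had 304, 233 and 383 FPKM in *malt-1* mutants, *ilc-17.1* mutants and *nfki-1* mutants and 256 FPKM in *npr-1* animals. The shorter *msp-74*, with 77 codons, was the *msp* gene with the highest ratio in *ilc-17.1* mutants, at 0.11. *msp-79* had the highest *msp* ratios in *malt-1* and *nfki-1* mutants, at 0.36 and 0.75, from levels of 1.60 FPKM in *malt-1* mutants, 2.43 FPKM in *nfki-1* mutants and 1.03 FPKM in *npr-1* animals.

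The *ssq* genes stood apart from the other families. *ssq-1* had 118 FPKM in *malt-1* mutants, 125 FPKM in *ilc-17.1* mutants, 227 FPKM in *nfki-1* mutants and 56.5 FPKM in *npr-1* animals. *ssq-2* had 115.5 FPKM in *malt-1* mutants, 128 FPKM in *ilc-17.1* mutants, 223 FPKM in *nfki-1* mutants and 70.0 FPKM in *npr-1* animals. All 3 mutants were thus above *npr-1* animals, and *nfki-1* mutants were highest. Ratios in *malt-1* mutants, *ilc-17.1* mutants and *nfki-1* mutants were 1.04, 1.12 and 1.97 for *ssq-1*, and 0.71, 0.84 and 1.65 for *ssq-2*. *ssq-4* had 103, 99.4 and 170.4 FPKM in these mutants and 78.6 FPKM in *npr-1* animals. *ssq-3*, the least abundant, had 27.7, 27.1 and 43.9 FPKM and 20.7 FPKM in *npr-1* animals. The ratios of *ssq-4* were 0.39, 0.32 and 1.09 and those of *ssq-3* were 0.40, 0.36 and 1.04. Between *ilc-17.1* and *malt-1* mutants the 4 genes had ratios of -0.06 to 0.14, and under all scalings tried the *ssq* sum was higher in each mutant than in *npr-1* animals. These genes encode sperm-specific proteins and have 290 to 405 codons in 3 coding exons, and no pair has the same length, so that they were not summed as near-identical copies.

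**Figure D3:**
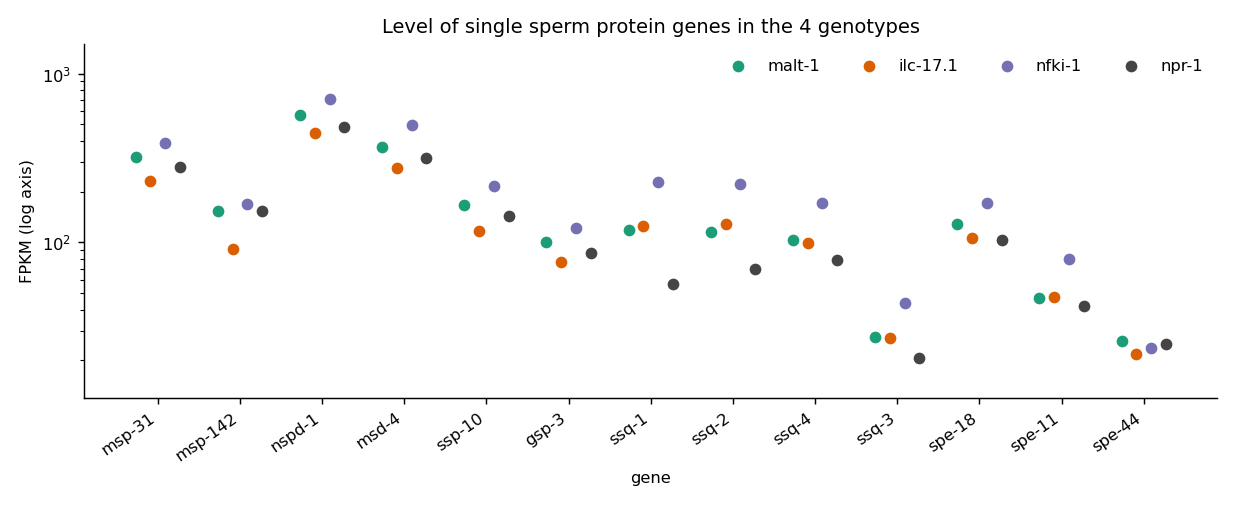
FPKM (log axis) of single sperm protein genes in *malt-1* mutants, *ilc-17.1* mutants and *nfki-1* mutants and *npr-1* animals, 1 point per genotype, each the mean of 3 estimates. *ssq-1* lies at 118, 125 and 227 FPKM in *malt-1* mutants, *ilc-17.1* mutants and *nfki-1* mutants and 56.5 FPKM in *npr-1* animals, whereas *msp-142* is lowest in *ilc-17.1* mutants, at 91.1 FPKM, and the 4 values of *spe-44* lie between 21.9 and 25.9 FPKM.

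Other sperm protein genes lie close to *ssq-1* and *ssq-2*. *ssq-1* (IV: 9852550 to 9853609) lies 1479 bases from *ssp-10* (IV: 9850648 to 9851070). *ssp-10* had 166, 118 and 217 FPKM in *malt-1* mutants, *ilc-17.1* mutants and *nfki-1* mutants and 144 FPKM in *npr-1* animals, with ratios of 0.20, -0.31 and 0.58. *ssq-2* (IV: 4996142 to 4997559) lies between the *ssp-9* genes WBGene00006038 and WBGene00006040, 1402 and 1874 bases away. Their ratios were 0.21, -0.16 and 0.76 for the first and 0.38, -0.02 and 0.68 for the second, so that in *ilc-17.1* mutants both lay below their neighbor at 0.84. The coordinates are those of the deposited table, whose genome build is not named.

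Among the other *ssp* genes, *ssp-16* and *ssp-34* were abundant, with 172 and 108 FPKM in *npr-1* animals. *ssp-34* had ratios of 0.20, -0.17 and 0.66 in *malt-1* mutants, *ilc-17.1* mutants and *nfki-1* mutants, and *ssp-16* of 0.15, -0.25 and 0.22. *ssp-33* was the lowest of the family in each mutant, at -0.18, -0.59 and 0.19, and *ssp-32*, a gene with 2 coding exons, was the highest in *ilc-17.1* mutants, at 0.16. In the *nspd* family, *nspd-9* had the highest ratios in *ilc-17.1* and *nfki-1* mutants, at 0.12 and 0.90, and *nspd-7* the lowest, at -0.23 and 0.43. No *nspd* gene passed 0.25 in *ilc-17.1* mutants, and the family sum there was -0.11, or 0.06 with values divided by the sum over all genes. All 9 *nspd* genes that passed the filter were higher by at least 0.25 in *nfki-1* mutants, against 26.4% of all genes. In *malt-1* mutants 5 of the 9 were, against 18.7%, with *nspd-6* at 0.48 and *nspd-10* at 0.15 as the ends of their range. The phosphatase genes moved together, with ratios of 0.21, -0.19 and 0.48 for *gsp-3* and 0.21, -0.23 and 0.42 for *gsp-4*.

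The *spe* genes act at different steps and are described in that order. *spe-44* encodes a transcription factor that directs expression of sperm genes. It had 25.9 FPKM in *malt-1* mutants, 21.9 FPKM in *ilc-17.1* mutants, 23.8 FPKM in *nfki-1* mutants and 25.2 FPKM in *npr-1* animals. Its ratios of 0.04, -0.21 and -0.09 all stayed within 0.25. *spe-11*, which encodes a paternally supplied protein needed by the embryo, had 47.1, 47.8 and 79.8 FPKM in *malt-1* mutants, *ilc-17.1* mutants and *nfki-1* mutants and 42.04 FPKM in *npr-1* animals. With 0.90 it had the highest *spe* ratio in *nfki-1* mutants. *spe-18*, needed for packing MSP into fibrous bodies, was the most abundant, with 129, 107 and 171 FPKM in the 3 mutants and 104 FPKM in *npr-1* animals.

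Genes for spermatocyte divisions and organelle formation varied among themselves. Of 8 such genes, 5 were higher in *nfki-1* mutants, 2 were higher in *malt-1* mutants, and 2 were lower in *ilc-17.1* mutants, with medians of 0.38, 0.21 and -0.08. The shares of all genes were 26.4%, 18.7% and 19.1% for these directions, to which 2 of 8 is close. *spe-15*, a myosin VI, had ratios of 0.23, 0.24 and 0.79 in *malt-1* mutants, *ilc-17.1* mutants and *nfki-1* mutants, and *spe-26*, a kelch-repeat protein, had 0.23, 0.05 and 0.67. *spe-4*, a presenilin of the membranous organelles, had 0.16, -0.28 and 0.16. *spe-5*, a V-ATPase subunit, had 15.9, 12.5 and 14.9 FPKM in these mutants and 16.3 FPKM in *npr-1* animals, with ratios of -0.04, -0.37 and -0.13. *spe-39*, which acts in vesicle trafficking in other tissues too, had ratios of -0.21, -0.09 and -0.07. *spe-6*, a casein kinase, and *spe-10*, a palmitoyltransferase, had 0.35 and 0.41 in *nfki-1* mutants.

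Of the 8 genes for activation of spermatids, all were higher by at least 0.25 in *nfki-1* mutants, 6 in *malt-1* mutants and 2 in *ilc-17.1* mutants, with medians of 0.61, 0.43 and 0.11. Of all genes, 26.4%, 18.7% and 24.3% were higher in these mutants, so that 2 of 8 in *ilc-17.1* mutants is close to the share of all genes. *spe-8*, a tyrosine kinase, had 8.60 FPKM in *malt-1* mutants, 6.14 FPKM in *ilc-17.1* mutants, 10.55 FPKM in *nfki-1* mutants and 6.35 FPKM in *npr-1* animals. *spe-27*, *spe-29* and *spe-12* had ratios of 0.89, 0.86 and 0.82 in *nfki-1* mutants. *spe-47*, an MSP-domain protein, and *spe-46* had 0.49 and 0.44 in *malt-1* mutants, and *spe-19* and *spe-43* had 0.43 and 0.12. The *spe-12* and *spe-27* ratios in *ilc-17.1* mutants were 0.30 and 0.48, but the table gives both genes a locus shared with other genes.

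Genes for binding and fusion with the egg were expressed at low levels, at 0.61 to 6.12 FPKM in *npr-1* animals. Of 7, 6 were higher in *nfki-1* mutants, 4 of the 6 that passed the filter in *malt-1* mutants, and 1 in *ilc-17.1* mutants, with medians of 0.41, 0.34 and 0.12, against the same shares of all genes. *spe-9*, a transmembrane protein with EGF repeats, had ratios of 0.37, 0.12 and 0.42. *spe-38*, *spe-42* and *spe-49*, other membrane proteins of sperm, had 0.51, 0.38 and 0.41 in *nfki-1* mutants, and *spe-51*, with an immunoglobulin-like domain, had 0.25. *spe-36*, a secreted protein with an EGF domain, was listed at 0.99 FPKM in *malt-1* mutants, 1.59 FPKM in *ilc-17.1* mutants, 1.81 FPKM in *nfki-1* mutants and 0.61 FPKM in *npr-1* animals, close to the filter and with a locus shared with another gene.

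The families also differ in gene structure. All *msp*, *msd* and *nspd* genes have 1 coding exon in the annotation, whereas *spe* and *ssq* genes have 3 or more. Of the 54 genes with 1 coding exon, 48, 47 and 48 passed the filter in *malt-1* mutants, *ilc-17.1* mutants and *nfki-1* mutants. Their median ratios were 0.19, -0.25 and 0.52, in the same order. Of the 38 genes with several, 36, 37 and 37 passed, with medians of 0.26, 0.05 and 0.48. Of the 26 genes lower in *ilc-17.1* mutants, 24 had 1 coding exon, and all 7 higher ones had several. The filter was passed there by 47 sperm protein genes with 1 coding exon and 37 with several. Among all protein-coding genes with 1 coding exon the medians were 0.15, -0.10 and 0.17, over 264 to 270 genes of which the sperm protein genes are a part. All protein-coding genes with several had -0.00, 0.01 and -0.00. In *ilc-17.1* mutants, 79 of 264 of all protein-coding genes with 1 coding exon were lower and 49 higher. Of those with several, 2143 of 11558 were lower and 2335 higher. The part of gene structure in the result was not tested.

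**Figure D4:**
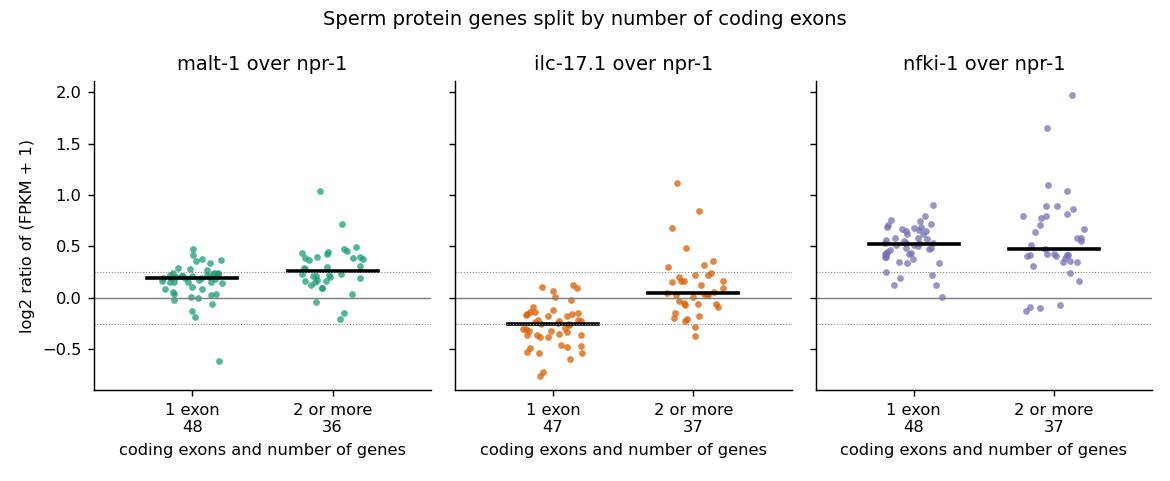
Log2 ratio of (FPKM + 1) of the sperm protein genes with 1 coding exon and with several, in *malt-1* mutants, *ilc-17.1* mutants and *nfki-1* mutants over *npr-1* animals. Points are genes and thick lines medians, at -0.25 for 1 coding exon and 0.05 for several in *ilc-17.1* mutants, and at 0.52 and 0.48 in *nfki-1* mutants.

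The genes are also unevenly placed. Chromosome IV holds 44 of the 92, or 47.8%, and 16.5% of all protein-coding genes, whereas the X chromosome holds 0 of the 92 and 13.5% of all protein-coding genes. Chromosomes I, II, III and V hold 21, 16, 4 and 7. The *msp* genes lie on II and IV only, with 13 and 18, and of the 61 *msp*, *msd*, *nspd*, *ssp* and *ssq* genes, 35 have another of the 92 within 10 kb by the coordinates of the annotation. No *spe* gene does. Such neighbors were not counted for other sets of genes, so these counts have no background.

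Other genes of sperm formation, taken from lists, were compared with the families. In *nfki-1* mutants, 3 of 4 genes for transcription and small RNA in spermatogenesis were higher and 0 lower. They were *alg-3* and *alg-4*, Argonautes of the spermatogenic small RNA pathway, at 0.57 and 0.49, and *elt-1*, a GATA factor, at 0.35. In *malt-1* mutants 1 of the 4 (*alg-4*, 0.26) was higher, and in *ilc-17.1* mutants none passed 0.25. Of all genes, 26.4% were higher in *nfki-1* mutants, 18.7% in *malt-1* mutants and 24.3% in *ilc-17.1* mutants. The 1 of 4 in *malt-1* mutants is close to that share. Of 3 genes for sperm chromatin, all were higher in *nfki-1* mutants. *htas-1*, a histone H2A variant of sperm, had 56.9, 50.9 and 80.5 FPKM in *malt-1* mutants, *ilc-17.1* mutants and *nfki-1* mutants and 42.1 FPKM in *npr-1* animals. *smz-1* and *smz-2*, PDZ proteins of sperm meiosis, had -0.25 and -0.26 in *ilc-17.1* mutants and 0.38 and 0.39 in *nfki-1* mutants.

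Of 10 genes that act in sperm or seminal fluid under other names, 5 were higher and 2 lower in *nfki-1* mutants, 4 and 1 in *malt-1* mutants, and 1 and 1 in *ilc-17.1* mutants. The shares of all genes were 26.4% and 16.9%, 18.7% and 11.3%, and 24.3% and 19.1%, in the same order, so that the counts of lower genes and both counts in *ilc-17.1* mutants were near or under them. *cylc-2*, a cylicin of sperm, had 33.2, 35.7 and 62.9 FPKM in *malt-1* mutants, *ilc-17.1* mutants and *nfki-1* mutants and 29.6 FPKM in *npr-1* animals. *sss-1* had 75.6, 68.1 and 129 FPKM in the mutants and 62.8 FPKM in *npr-1* animals. *peel-1*, a toxin that sperm deliver to the embryo, had ratios of 0.50, 0.35 and 0.83, and *comp-1*, which acts in sperm competition, had 0.28, -0.03 and 0.70. *zipt-7.1*, a zinc transporter used in activation, was lower in all 3 mutants, at -0.27, -0.54 and -0.42.

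The 20 genes listed for the choice of sperm fate had medians near 0, at -0.09, -0.07 and -0.04. They were listed without regard to the direction in which each acts, so that a median does not show the direction of the choice. In *malt-1* mutants 1 was higher and 3 lower, in *ilc-17.1* mutants 3 and 7, and in *nfki-1* mutants 3 and 2. Except for the 7 lower in *ilc-17.1* mutants, these counts lie near or under the shares of all genes, which were 18.7% higher and 11.3% lower in *malt-1* mutants, 24.3% and 19.1% in *ilc-17.1* mutants, and 26.4% and 16.9% in *nfki-1* mutants. Among those 7, *gld-1*, *fbf-1* and *fbf-2*, at -0.32, -0.34 and -0.33, are also in the list of germ line genes described below. *fog-3*, a Tob-family protein that commits germ cells to sperm, had 15.8, 14.3 and 11.7 FPKM in *malt-1* mutants, *ilc-17.1* mutants and *nfki-1* mutants and 25.3 FPKM in *npr-1* animals. *fog-1*, a CPEB protein with the same role, had 28.97, 30.7 and 27.2 FPKM in the mutants and 42.4 FPKM in *npr-1* animals. *fog-3* was thus lowest in *nfki-1* mutants, where the sperm protein genes were highest. *tra-1*, the Gli-family regulator of sex, had ratios of 0.44, 0.91 and 1.04. *her-1*, the secreted masculinizing signal, had 1.98, 0.48 and 4.16 FPKM in the mutants and 2.66 FPKM in *npr-1* animals.

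Markers of other cells moved too. Of 16 oocyte and eggshell genes, 15 passed the filter, with 0 higher and 12 lower in *malt-1* mutants, 5 were higher and 0 lower in *ilc-17.1* mutants, and 2 higher and 0 lower in *nfki-1* mutants. Of all genes, 11.3% were lower in *malt-1* mutants, 24.3% higher in *ilc-17.1* mutants and 26.4% higher in *nfki-1* mutants, so that the counts of higher oocyte genes were near or under the share of all genes. The summed level of these oocyte and eggshell genes in the 3 comparisons was 720, 1014 and 1064 FPKM in *malt-1* mutants, *ilc-17.1* mutants and *nfki-1* mutants, against 815 to 827 FPKM in *npr-1* animals. Their median ratios were -0.27, 0.20 and 0.08. The higher sum in *nfki-1* mutants lay mostly in the 2 higher genes, *perm-2* and *perm-4*. These had 242.8 and 273.9 FPKM in *nfki-1* mutants and 136.3 and 151.2 FPKM in *npr-1* animals. Of 12 genes of the proliferating and meiotic germ line, 6 were lower in *malt-1* mutants, against 11.3% of all genes. In *ilc-17.1* mutants 10 of them were lower and in *nfki-1* mutants again 6, against 19.1% and 16.9% of all genes. The medians in *malt-1* mutants, *ilc-17.1* mutants and *nfki-1* mutants were -0.24, -0.46 and -0.28, and 1 gene (*rec-8*) was higher, in *ilc-17.1* mutants. Their sums were 854, 724 and 842 FPKM in the mutants, against 1020 to 1035 FPKM in *npr-1* animals.

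Among 7 genes of adults, the 6 vitellogenin genes *vit-1* to *vit-6* (yolk proteins made in the intestine) were higher in all 3 mutants, and the list had medians of 0.70, 2.00 and 1.65. The sum of the 7 was 935, 1806 and 1874 FPKM in *malt-1* mutants, *ilc-17.1* mutants and *nfki-1* mutants, against 820.2 to 832 FPKM in *npr-1* animals, and the cuticle collagen *col-19* had ratios of -0.53, -0.30 and 0.17. Between *nfki-1* and *ilc-17.1* mutants the list had 1 gene higher and 4 lower, against 18.6% and 13.6% of all genes. The ratios ran from -0.63 (*vit-1*) to 0.48 (*col-19*), with a median of -0.28. Of 9 markers of male-specific neurons, 8 were under 1 FPKM in every genotype and *cwp-4* had 1.16 to 1.43 FPKM. Of 8 genes of the L4 molt, 5 were listed at 0, *bli-1* and *bli-2* had 223 to 310.1 FPKM and 902 to 1198 FPKM, with ratios in *malt-1* mutants, *ilc-17.1* mutants and *nfki-1* mutants of 0.09, 0.29 and -0.18 for *bli-1* and 0.28, 0.07 and -0.14 for *bli-2*. The part of developmental timing and of the makeup of the germ line in the sperm gene result was not tested.

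**Figure D5:**
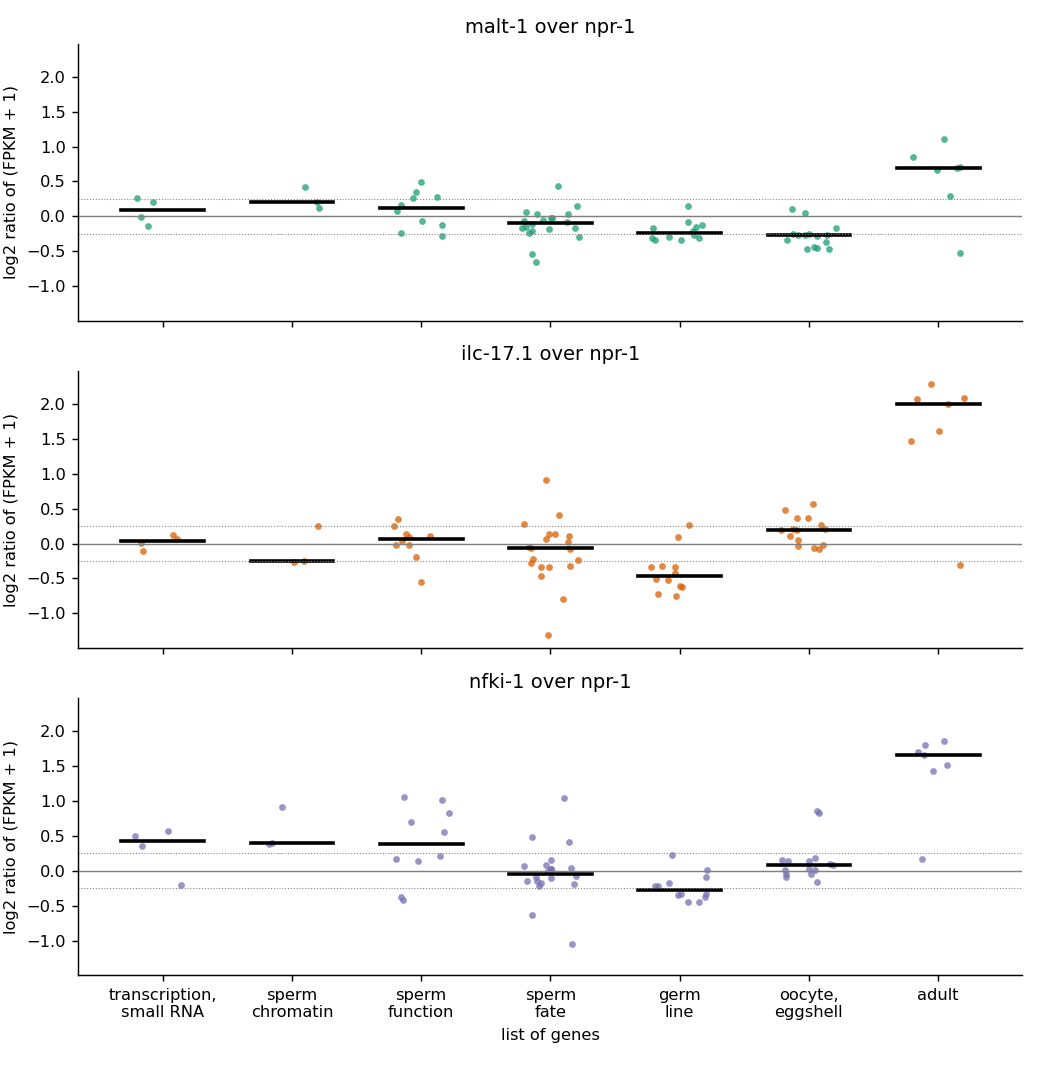
Log2 ratio of (FPKM + 1) of genes from 7 lists in *malt-1* mutants, *ilc-17.1* mutants and *nfki-1* mutants over *npr-1* animals, from top to bottom. Points are genes that passed the filter, thick lines medians, dotted lines 0.25 in either direction. Germ line medians are -0.24, -0.46 and -0.28, and the adult list has a median of 2.00 in *ilc-17.1* mutants, against 1.65 in *nfki-1* mutants.

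Values of the mutated genes and of general markers complete the account. *nfki-1* itself had 8.99 FPKM in *nfki-1* mutants and 24.1 FPKM in *npr-1* animals, *malt-1* had 4.02 FPKM in *malt-1* mutants and 6.54 FPKM in *npr-1* animals, and *ilc-17.1* had 0.16 FPKM in *ilc-17.1* mutants and 0.31 FPKM in *npr-1* animals. Where the mutations lie relative to the counted exons was not examined. Markers of neurons (4 of 4), muscle (3 of 3) and intestine (2 of 3) passed the filter, and those of hypodermis (0 of 3) did not, with *dpy-7* and *dpy-13* listed at 0. Over *npr-1* animals, the muscle genes had 1 higher in *malt-1* mutants, 3 were higher in *ilc-17.1* mutants and 2 were higher in *nfki-1* mutants, with medians of 0.05, 0.42 and 0.25. Of all genes, 18.7%, 24.3% and 26.4% were higher, in the same order. Of the neuron genes, 0 were lower in *malt-1* mutants, 2 were lower in *ilc-17.1* mutants and 1 was lower in *nfki-1* mutants, with medians of -0.11, -0.18 and -0.22. The shares of all genes that were lower were 11.3%, 19.1% and 16.9%. A count of 1 among 3 or 4 genes cannot be set apart from such shares. The intestine genes stayed within 0.25 in all 3 mutants. Whether these differences bear on the sperm protein genes was not tested.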

How the data were processed

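RNA was extracted from whole late L4 animals, and stranded polyA libraries were sequenced as single-end reads of 50 bases. Per the labels, the authors used Trim Galore 0.4.3, TopHat2 2.1.0, Cufflinks 2.2.1 and Cuffdiff. The genome build is not given in the sources used here. The authors deposited 1 table with 7 comparisons of 2 genotypes, each with 1 FPKM value per genotype. Of these, 6 gave the results, and a second comparison of *ilc-17.1* with *malt-1* mutants served as an alternative. The deposited columns of fold changes, test statistics, p-values, q-values and calls of significance hold the authors' own comparisons and were not used. The table has 0 columns of single samples, so samples were grouped only by the genotype in the labels (18 each, of which 3 in *ilc-17.1* mutants repeat the library number of another, and all genotypes have more samples than the independent biological replicates of the methods, with no label for which samples share a replicate), depth is unknown, and neither a test nor an interval was possible. All comparisons are descriptions of these values.

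FPKM values were taken as deposited. Ratios were log2 of FPKM plus a pseudocount of 1, for genes with a mean of at least 1 FPKM. Names, gene types, coding length and coding exons came from the WBcel235 annotation (Ensembl release 115), in which all 92 genes overlapped the deposited locus. Genes of 1 family with the same coding length and number of coding exons were treated as near-identical copies, since no sequences were used. The deposited locus was shared with other genes for all but 80 of the 92 genes. The genes described are, in each family, the 3 with the highest mean level and those with the highest and lowest ratio in each mutant, both *gsp* genes and *spe* genes of known role (*spe-7* was not among the 92). Some of these genes are not reported here. Other filters, pseudocounts, thresholds, scalings and summed copies were tried as alternatives. The genes and lists were chosen with earlier results of these data known. Calculations used Python 3.11.15, pandas 2.3.3, numpy 2.4.6 and matplotlib 3.10.9.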

Additional observations from a re-analysis of the deposited data

How the results depend on the processing

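No paired analysis was possible because the deposited table holds no values per sample, and for the same reason no replicate could be left out. The settings were a pseudocount of 0.1 FPKM, no filter, a mean of at least 10 FPKM, higher thresholds, centering on all genes and summed copies, and, chosen after seeing the data, shares of the summed FPKM, a minimum in the genotype divided by, leaving out genes with a shared locus, and the second comparison of *ilc-17.1* with *malt-1* mutants. The pseudocount, no filter, centering, the minimum in the genotype divided by and the second comparison moved no count or median by over 1.5 times. The median in *ilc-17.1* mutants over *npr-1* animals changed sign, to 0.0297 with near-identical copies summed and to 0.0135 on shares, and that over *malt-1* mutants was -0.20 with copies summed and -0.19 on shares. The summed copies leave fewer *msp* units among as many *spe* genes, and shares divide by totals that differ between genotypes.

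With a mean of at least 10 FPKM, over *npr-1* animals, 17 of 66 genes were higher and 0 lower in *malt-1* mutants. Of all genes, 1229 and 709 of 8494 were. In *ilc-17.1* mutants 4 of 65 were higher, against 1669 of 8571 of all genes. In *ilc-17.1* over *malt-1* mutants 0 of 66 were higher, against 1297 of 8668. With copies summed, 0 of 42 units were lower in *malt-1* mutants (11.3% of all genes) and 4 of 43 in *ilc-17.1* mutants (19.1%). These 4 of 43 lie under the share of all genes, whereas the 26 of 84 single genes lie above it. In *nfki-1* mutants 37 of 43 were higher (26.4% of all genes). In *ilc-17.1* over *malt-1* mutants 17 of 43 were lower (17.2%). In *nfki-1* over *malt-1* mutants 25 of 43 were higher (16.9%), and over *ilc-17.1* mutants 38 of 43 (18.6%). At a log2 ratio of 0.5, over *npr-1* animals, 2 were higher in *malt-1* mutants, 3 higher and 6 lower in *ilc-17.1* mutants and 45 higher in *nfki-1* mutants. Between mutants at 0.5, 0 were higher and 18 lower in *ilc-17.1* over *malt-1* and 14 higher in *nfki-1* over *malt-1*. At 1, over *npr-1* animals, 1 was higher and 0 lower in *malt-1* mutants, 1 higher and 0 lower in *ilc-17.1* mutants and 4 higher in *nfki-1* mutants, and between mutants 0 were higher or lower. On shares, 20 were higher and 10 lower in *ilc-17.1* mutants over *npr-1* animals, and 5 higher and 27 lower over *malt-1* mutants. Without genes of shared locus, 4 of 73 were higher in *ilc-17.1* mutants over *npr-1* animals and 0 of 73 over *malt-1* mutants. Of all genes, 24.3% and 19.6% were. For the counts at 0.5, at 1 and on shares, the genes passing and the shares of all genes are those given with the main counts.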
